A study of Mus musculus with 23 samples.

Results

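The UDP-glucuronosyltransferase (Ugt) and cytosolic sulfotransferase (Sult) genes were followed across 23 mouse liver RNA-seq libraries. The members were all genes of the deposited count table whose symbol starts with Ugt or Sult followed by a digit, 40 of 24440 genes (21 Ugt and 19 Sult). Of these, 25 (18 Ugt and 7 Sult) were among the 12891 genes with enough counts to test, and the other 15 are given below by their counts. The mice were C57Bl/6 males of 3 labelled genotypes, namely wild type (WT), mice without IL-4 (IL4KO), and mice without both IL-10 and IL-4 (dKO), so that by label IL4KO and dKO mice share the loss of IL-4. They came from a commercial breeder at 6 to 8 weeks of age and were given chow or a diet with 60% of its energy as fat (HFD) for 15 weeks. WT_chow, WT_HFD, IL4KO_chow, dKO_chow and dKO_HFD held 4 mice each and IL4KO_HFD held 3, with 1 perfused liver per library.

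Ugt enzymes sit in the endoplasmic reticulum and join glucuronic acid, taken from UDP-glucuronic acid, to bilirubin, steroids, bile acids and drugs. Sult enzymes work in the cytosol and join a sulfonate group, taken from the donor PAPS, to phenols, steroids, bile acids and amines. Both make small lipophilic molecules more water-soluble, the liver is a main site of both, and transporters such as Abcc2 and Abcc3 then carry the conjugates into bile or blood. The Ugt1a locus is built in an unusual way: each enzyme has its own promoter and first exon, which encodes the substrate-binding end of the protein, and all are spliced to the same downstream exons.

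Some facts of the series bear on every result. Library totals ran from 7114454 to 30205070 counts, with 16220799 to 30205070 in dKO_chow, the deepest group, and 7788331 to 8935346 in IL4KO_HFD. Il4 had 0 to 3 counts in any library, so that its deletion cannot be checked here. Il10 went against the label: it had 41 to 67 counts in dKO_chow and 6 to 21 in dKO_HFD, but 0 to 4 in all WT and IL4KO libraries, so every direction below is for the libraries labelled dKO. The labels do not give the deleted stretch of Il10, and counts from outside it would check nothing. The libraries dKO_HFD replicate 4 and IL4KO_HFD replicate 2 stood apart from their groups, and results that rest on them are given with and without them. The labels name no batch.

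The 8 Ugt1a genes share most of their RNA, which limits how their counts can be told apart. They lie at chr1:88055388-88220002 on the plus strand (GRCm38, the build of the files; GENCODE annotation), and exons 2, 3 and 4 of the transcripts are the same in 8 of 8 members. In the Ugt1a1 transcript, 1311 bases are shared with the other members. What marks a member is mainly its first exon and the join of that exon to exon 2 at chr1:88215044. Exon 5 is the same in 6 members, where it ends at chr1:88218997. It runs further in Ugt1a10 (to chr1:88219004) and Ugt1a7c (to chr1:88220002). The joins are shown because a read across one of them can narrow down the gene, with the last 15 bases of the first exon in lower case and the first 15 of exon 2 in capitals, 5′ to 3′, from the reference genome.
Ugt1a9: aagtcactttccaagGAATTTGAAGCCTAT
Ugt1a10: aagccactttccaagGAATTTGAAGCCTAT
Ugt1a1: aagcccctatcccagGAATTTGAAGCCTAT
Ugt1a5: aagcccctctctcagGAATTTGAAGCCTAT
Ugt1a6a: ggaaagctgactcagGAATTTGAAGCCTAT
Counted from 1 at the 5′ end, Ugt1a10 differs from Ugt1a9 by 1 substitution (T4C, the Ugt1a9 base first), and Ugt1a7c has the same sequence as Ugt1a10. Ugt1a1 differs from Ugt1a9 by T4C, A6C, T9A and A13C. The Ugt1a6a and Ugt1a6b joins are identical to each other, as are those of Ugt1a5 and Ugt1a2. Of all 50-base windows of their transcripts, 4.02% in Ugt1a6a, 38.0% in Ugt1a9 and 41.8% in Ugt1a1 occur in no other gene. The deposited counts are estimates that divide the shared reads: for Ugt1a1 and Ugt1a5 none of the 23 values was a whole number, whereas for Sult1d1 and Sult1c2 100% were whole (within 0.01). Directions within the Ugt1a locus therefore also depend on how the authors' software divided those reads, and the summed Ugt1a level is given beside them.

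Levels are given as CPM, counts scaled to each library's size, and comparisons between genes use CPM per kilobase of the longest coding transcript. On that per-length scale the WT_chow livers expressed Ugt2b5 most, at 507 ± 73.8 (mean ± SD, n = 4), followed by Sult2a8 at 353 ± 62.6, Ugt2b36 at 319.5 ± 31.5 and Sult1a1 at 281 ± 33.5. Ugt1a1, the enzyme that conjugates bilirubin, stood at 211 ± 37.3 and Ugt1a9 at 20.1 ± 3.07 on the same scale. Sult2a8, Ugt2b36 and Sult1a1 overlap within their spread in that order, and so do Ugt1a1 and Ugt2b1 (193 ± 27.7).

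The other 15 members had too few counts for a test. Sult1c1, Sult2a6, Sult6b1, Ugt2a1 and Ugt2a2 were at 0 in all 23 libraries, which allows a group level of up to 0.0323 CPM in dKO_chow and 0.119 CPM in IL4KO_HFD (3 counts of the group's total, counting error only). Sult2a1, Sult2a2, Sult2a3, Sult2a4 and Sult2a5, hydroxysteroid sulfotransferases of which Sult2a1 and Sult2a2 are known from female mouse liver, had 0 to 2 counts per group. Sult3a1, also known from female liver, had 0 to 7 counts per group, Sult2b1 (a cholesterol sulfotransferase) 0 to 8 and Ugt1a2 0 to 10. Sult1e1, the estrogen sulfotransferase, had 5, 3, 5 and 7 counts in the WT_HFD mice and 5, 20, 10 and 0 in the dKO_HFD mice, against 0 to 5 in every other library. Because IL4KO_HFD holds shallow libraries, Sult1e1 is also given in CPM. Its mean was 0.386 in WT_HFD, 0.369 in IL4KO_HFD and 0.416 in dKO_HFD. On chow it was 0.0923 in WT, 0.159 in IL4KO and 0.107 in dKO. Sult4a1, best known from brain, had 20, 34, 7 and 6 counts in dKO_chow and 0 or 1 in each of the other 19 libraries. Since dKO_chow holds deep libraries, its level is also given in CPM, 0.280 to 1.02 in dKO_chow and at most 0.0815 in WT_chow. The gene is singled out here because of these counts, so no test is given for it.

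**Figure D1:**
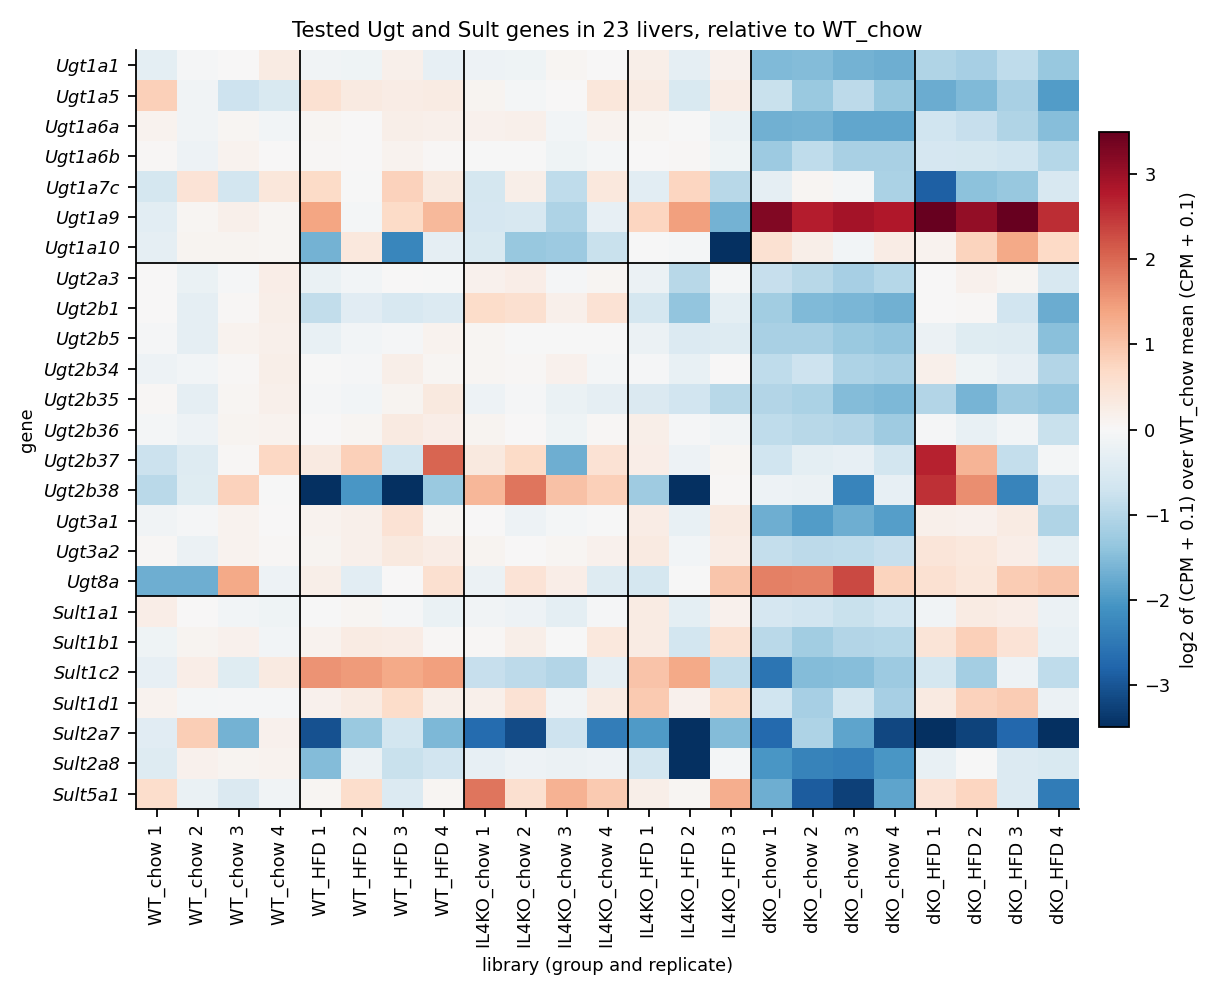
Heat map of the 25 tested genes (rows, in family order) in 23 livers (columns), as log2 of CPM plus 0.1 over the WT_chow mean plus 0.1, with colours limited to 3.5 either way. The dKO_chow columns are blue for most genes and red for Ugt1a9 and Ugt8a, and the dKO_HFD columns lie nearer to WT_chow except replicate 4.

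On chow, most conjugation genes were lower in the libraries labelled dKO than in WT. Of 25 tested members, 19 were lower and 2 higher (edgeR's quasi-likelihood test, two-sided, Benjamini-Hochberg adjusted p, called FDR, below 0.05), where 46.3% of all tested genes were called (21.9% lower and 24.4% higher). The median log2 fold change was -1.05 over the members and 0.02 over all tested genes. All 7 tested Sult genes were lower, and so were 4 of 7 tested Ugt1a genes, 5 of 7 Ugt2b genes and both Ugt3a genes. Called with no overlap between the 4 dKO_chow and 4 WT_chow mice were 19 of the 25 tested members and 39.6% of all tested genes. Among called genes only, these were 19 of 21 members and 5099 of all 5966. The 2 members that were higher were Ugt1a9 and Ugt8a, and Ugt8a passed the filter on low counts only through dKO_chow, where it is high.

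Summed over all members, the level in CPM was 6032 ± 447 in WT_chow and 2880.2 ± 207 in dKO_chow (mean ± SD, n = 4 each, with no test on the sum). The dKO_chow sums ran from 2684 to 3152 and those of WT_chow from 5530.4 to 6523, so the groups lie apart. On HFD the sums were 5799.9 ± 385 in WT and 5111 ± 1121 in dKO, where replicates 1 to 3 reached up to 5871 and replicate 4 had 3452. IL4KO mice had 6122 ± 205 on chow and 5313 ± 895 (n = 3) on HFD, and both ranges overlap those of WT. In whole liver, fewer hepatocytes and less RNA per hepatocyte cannot be told apart.

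**Figure D2:**
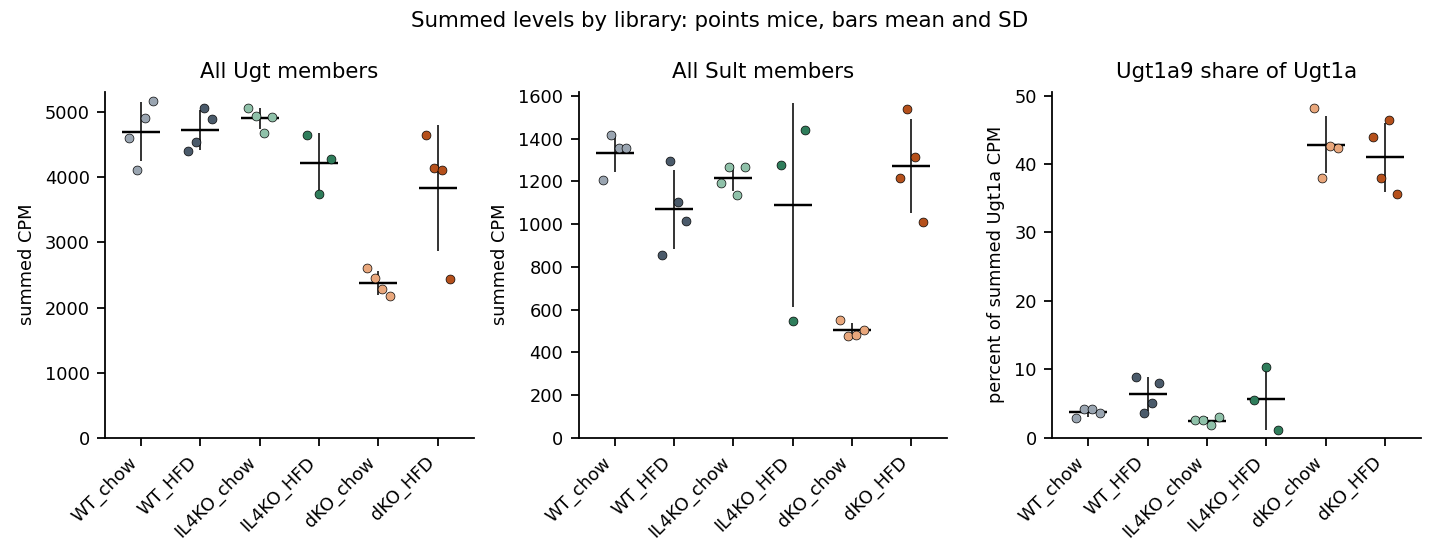
Summed CPM of all Ugt genes (left), of all Sult genes (middle), and the percentage of summed Ugt1a CPM held by Ugt1a9 (right), each from 0, by group; points are mice and bars give mean and SD. Both sums are lowest in dKO_chow, and the Ugt1a9 share is 38.0% or more in dKO_chow and 35.7% or more in dKO_HFD against at most 10.4% in the other groups.

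Other cell types and the acute phase response moved with the same groups. Against WT on chow, the libraries labelled dKO had 8 of 10 hepatocyte markers lower, 8 of 8 cholangiocyte (bile duct cell) markers higher, 7 of 7 tested neutrophil markers higher, 7 of 8 macrophage markers higher and 3 of 3 tested lymphocyte markers higher. Summed cholangiocyte markers were 44.7 to 52.9 CPM in WT_chow and 465 to 842 CPM in dKO_chow, and summed neutrophil markers 2.54 to 25.9 and 118 to 395 CPM. All 16 acute phase genes were higher there, with sums of 22776 to 37546 CPM in WT_chow and 67490 to 90778 CPM in dKO_chow. The summed hepatocyte markers were 121712 to 126406 CPM in WT_chow and 81938 to 93137 CPM in dKO_chow. On HFD, 7 of 8 cholangiocyte markers were higher in dKO than in WT, 0 neutrophil and 0 macrophage markers were called by edgeR (0 at an unadjusted p below 0.05), and 4 of 16 acute phase genes were higher. Within dKO_HFD, replicate 4 had 60750 CPM of acute phase genes and 54.7 CPM of neutrophil markers, against 20135 to 23711 and 2.18 to 3.53 CPM in the other 3 mice. Over all tested genes, 24.4% were higher and 21.9% lower in dKO than in WT on chow, and 12.9% and 11.6% on HFD. Of stellate cell markers 2 of 8 were higher and 1 lower in dKO_chow than in WT_chow, and of endothelial markers 1 of 6 either way. The part of these cells in the results below was not tested. Of markers of other organs, Sis (intestine) and Snap25 (brain) were at 0 in every library, and summed kidney markers were at most 0.0927 CPM. The tested intestine genes Fabp2 and Lgals4 and the 1 tested pancreas gene, Cela1, were lower in dKO_chow than in WT_chow.

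Ugt1a9, an enzyme for phenols and fatty acids, was higher in dKO on both diets. In WT, Ugt1a9 stood at 34.2, 46.5, 49.5 and 45.8 CPM on chow and 116, 41.6, 70.1 and 97.3 CPM on HFD. The Ugt1a9 values of IL4KO_chow were 29.0, 30.1, 20.6 and 36.2 CPM and those of IL4KO_HFD 74.1, 119.7 and 13.9 CPM. With dKO, Ugt1a9 was 417, 294, 329 and 308 CPM on chow and 492, 370.1, 552 and 264 CPM on HFD. Every mouse labelled dKO, on either diet, stood above every WT and IL4KO mouse. Against WT the log2 fold change ± SE was 2.94 ± 0.45, FDR 5.78e-05 on chow (7.65-fold) and 2.37 ± 0.43, FDR 0.00102 on HFD (5.16-fold). Against IL4KO it was 3.54 ± 0.46, FDR 1.47e-05 on chow and 2.59 ± 0.49, FDR 0.0126 on HFD. These comparisons share the dKO mice, and the last one was lost in a fit of the 2 groups alone (FDR 0.408) and without IL4KO_HFD replicate 1 (FDR 0.0516). Replicate 4 of dKO_HFD was the lowest of its group, and without it the difference from WT on HFD was 2.53 (FDR 0.00109).

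The first exon of Ugt1a9 lies at chr1:88070800-88071678, 0.141 Mb upstream of the Ugt1a1 first exon (chr1:88211959-88212871). Il10, the gene targeted in the dKO line by label, lies on the same chromosome at chr1:131019845-131024974, 42.8 Mb from the locus. Whether chromosome 1 sequence linked to the Il10 allele differs between the lines was not tested.

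**Figure D3:**
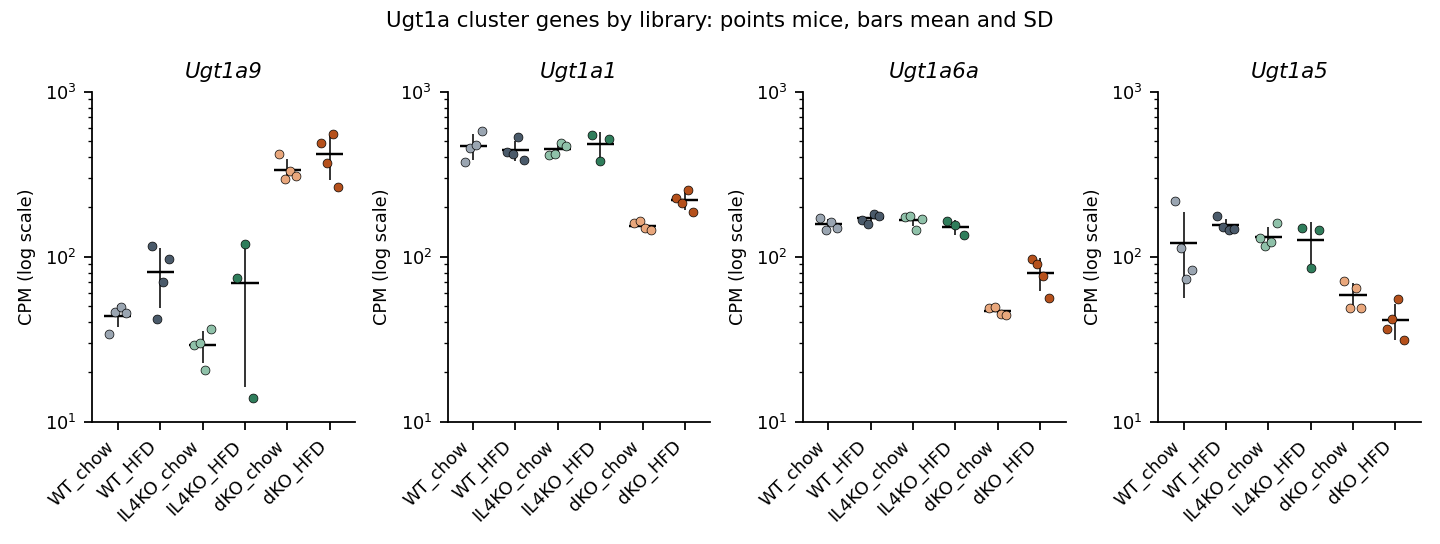
CPM of 4 Ugt1a genes by group on a log axis; points are mice, horizontal bars means and vertical bars SD. Ugt1a9 is high in both groups labelled dKO, where Ugt1a1, Ugt1a6a and Ugt1a5 are low.

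Ugt1a1 moved the other way. WT mice had Ugt1a1 at 374, 457, 473 and 577 CPM on chow and 433, 422, 532 and 384 CPM on HFD. For Ugt1a1, IL4KO_chow had 415, 420.5, 489 and 471 CPM and IL4KO_HFD 546, 379.8 and 519.9 CPM. dKO mice had Ugt1a1 at 160.2, 164, 149 and 144 CPM on chow and 226, 211, 253 and 187 CPM on HFD. All 8 mice labelled dKO lay below all 15 others. The difference from WT was -1.61 ± 0.13, FDR 2.5e-08 on chow (3.04-fold lower) and -1.01 ± 0.13, FDR 2.07e-05 on HFD (2.02-fold lower), and from IL4KO -1.54 ± 0.13, FDR 5.93e-08 and -1.14 ± 0.14, FDR 4.57e-05. The HFD raised it within dKO (0.50 ± 0.13, FDR 0.00419).

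The same held for both Ugt1a6 genes, whose enzymes conjugate flat phenols. Ugt1a6a in CPM was 172, 145, 163 and 148 in WT_chow and 166, 158, 182 and 178 in WT_HFD. IL4KO mice had Ugt1a6a at 175, 177, 146 and 169.5 CPM on chow and 164, 155 and 135 CPM on HFD. In dKO, Ugt1a6a stood at 48.9, 49.6, 44.8 and 44.2 CPM on chow and 97.0, 90.1, 76.3 and 56.1 CPM on HFD. Again the 8 dKO mice lay below all others, -1.74 ± 0.12, FDR 1.14e-09 against WT on chow and -1.10 ± 0.12, FDR 2.22e-06 on HFD. In WT, Ugt1a6b stood at 408, 354, 435 and 399 CPM on chow and 410.1, 402, 433 and 409 CPM on HFD. The Ugt1a6b values of IL4KO_chow were 397, 397, 359 and 383 CPM and those of IL4KO_HFD 406, 410.1 and 357 CPM. With dKO, Ugt1a6b was 165, 214, 181 and 180.2 CPM on chow and 267, 261, 247 and 198 CPM on HFD. This gene differed less, -1.11 ± 0.10, FDR 4.13e-08 on chow and -0.77 ± 0.10, FDR 1.19e-05 on HFD, also with no overlap. Since 79.6% of Ugt1a6b windows occur in Ugt1a6a, the split between these copies is uncertain.

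Ugt1a5 was lower in dKO with a wider spread in the controls. WT mice had Ugt1a5 at 218, 113, 73.5 and 83.5 CPM on chow and 177, 152, 146 and 148 CPM on HFD. For Ugt1a5, IL4KO_chow had 131, 115, 123 and 161 CPM and IL4KO_HFD 149, 84.9 and 145 CPM. dKO mice had Ugt1a5 at 70.8, 49.2, 64.4 and 48.6 CPM on chow and 36.7, 41.7, 55.2 and 31.5 CPM on HFD. WT_chow replicate 1 stood well above the other WT_chow mice, and no dKO mouse reached the lowest WT mouse on its diet. The difference was -1.07 ± 0.28, FDR 0.00424 on chow and -1.91 ± 0.28, FDR 0.000142 on HFD, and the chow call was lost in a fit of these 2 groups alone (FDR 0.0597).

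Ugt1a10 and Ugt1a7c were scarce. Ugt1a10 in CPM was 1.20, 1.63, 1.63 and 1.60 in WT_chow and 0.417, 2.0, 0.234 and 1.20 in WT_HFD. IL4KO mice had Ugt1a10 at 1.02, 0.542, 0.572 and 0.836 CPM on chow and 1.49, 1.45 and 0 CPM on HFD. In dKO, Ugt1a10 stood at 2.25, 1.76, 1.40 and 1.82 CPM on chow and 1.66, 2.68, 3.95 and 2.50 CPM on HFD. Its dKO values were higher than those of IL4KO on chow (1.27 ± 0.51, FDR 0.0486) and those of WT on HFD (1.43 ± 0.45, FDR 0.0241), but WT_HFD replicate 2 overlaps the dKO_HFD mice. The HFD call was lost without WT_HFD replicate 1 (FDR 0.0841), WT_HFD replicate 3 (FDR 0.0646) or dKO_HFD replicate 3 (FDR 0.0792), and in a fit of the 2 groups alone (FDR 0.069). Ugt1a7c ran from 0 to 1.17 CPM over all libraries, and was lower in dKO than in WT on HFD (-2.25 ± 0.53, FDR 0.00421).

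The sum over the Ugt1a locus depends less on how shared reads were divided. Summed Ugt1a CPM was 1194 ± 57.4 in WT_chow, 1266 ± 84.1 in WT_HFD, 1163 ± 40.3 in IL4KO_chow and 1221 ± 104 in IL4KO_HFD. It was 784 ± 57.7 in dKO_chow (727 to 865), below every mouse of those 4 groups, and 1006 ± 198 in dKO_HFD (739.8 to 1187), which overlaps them. Without Ugt1a9 the sums were 1150.3 ± 59.0 and 1185 ± 78.7 in WT on chow and HFD, and 447 ± 24.7 and 586 ± 74.7 in dKO. Ugt1a9 made up 3.69 ± 0.623% of the Ugt1a sum in WT_chow, 6.38 ± 2.48% in WT_HFD, 42.8 ± 4.18% in dKO_chow and 41.0 ± 5.05% in dKO_HFD. The Ugt1a9 share thus overlapped between the diets in dKO and lay apart from all other groups.

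The promoters of Ugt1a9 and Ugt1a1 are shown because the estimated counts of these genes moved in opposite directions in the same livers. Each window runs from upstream of the RefSeq start to just after it (GRCm38.p6), 5′ to 3′ on the plus strand, with matches to 6 searched motifs in capitals. The windows are chr1:88070529-88070828 for Ugt1a9 and chr1:88211709-88212008 for Ugt1a1.
Ugt1a9: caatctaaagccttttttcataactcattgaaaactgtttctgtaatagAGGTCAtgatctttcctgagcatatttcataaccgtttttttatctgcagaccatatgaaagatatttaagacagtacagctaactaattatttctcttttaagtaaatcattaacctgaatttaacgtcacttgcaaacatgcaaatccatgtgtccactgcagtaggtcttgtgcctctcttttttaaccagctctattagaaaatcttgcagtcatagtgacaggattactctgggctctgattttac
Ugt1a1: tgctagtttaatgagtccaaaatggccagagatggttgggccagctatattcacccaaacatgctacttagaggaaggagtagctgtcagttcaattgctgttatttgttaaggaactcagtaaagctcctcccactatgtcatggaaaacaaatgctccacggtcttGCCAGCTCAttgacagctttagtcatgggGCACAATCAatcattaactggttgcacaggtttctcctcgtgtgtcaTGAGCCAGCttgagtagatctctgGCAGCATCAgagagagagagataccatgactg
Capitals mark AGGTCA, a nuclear receptor half-site, in the Ugt1a9 window and TGANNNNGC at 4 places in the Ugt1a1 window, on either strand. TGANNNNGC was the loose pattern searched for NRF2, with any base at each N, so a match need not be an NRF2 element. Over 37 windows of 34 members with a RefSeq promoter, AGGTCA was found in 10 (16.3% of 32851 windows of all genes), TGANNNNGC in 12 (41.3%) and TTGCNNAA, bound by C/EBP factors, in 9 (10.8%). GCGTG, the core bound by AHR, was found in 6 (32.4% of all), TTCNNNGAA, bound by STAT factors, in 2 (8.30%) and the HNF1 motif in 0 (0.00913%). AGGTCA was found in the windows of Ugt2b5, Ugt2b35, Ugt2b36, Ugt2b37 and Ugt2b38, and TTCNNNGAA in those of Ugt1a6a and Sult3a1. These are matches of letters, not sites known to be bound.

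The Ugt2 genes lie with Sult1b1, Sult1d1 and Sult1e1 in a cluster of 13 members at chr5:86889767-87591594. Ugt2b enzymes are known for steroids and bile acids. Ugt2b5, the highest member per length, shares 34.8% of its windows with Ugt2b38. In WT, Ugt2b5 stood at 910.5, 762, 1033 and 1063 CPM on chow and 779.8, 881, 913 and 1022 CPM on HFD. The Ugt2b5 values of IL4KO_chow were 986, 942, 929 and 926 CPM and those of IL4KO_HFD 824, 682 and 695 CPM. With dKO, Ugt2b5 was 432, 431, 383 and 363 CPM on chow and 822, 705, 687 and 343 CPM on HFD. On chow all 4 dKO mice lay below all 4 WT mice (-1.23 ± 0.17, FDR 1.26e-05). On HFD the difference was -0.49 ± 0.17 (FDR 0.0399), with overlap. That call was lost without dKO_HFD replicate 4 (log2 fold change -0.29, FDR 0.0742), without any of WT_HFD replicates 2, 3 and 4 (FDR 0.0624 to 0.113), without the count filter (FDR 0.0551) and in a fit of the 2 groups alone (FDR 0.161).

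Ugt2b36 followed the same course. WT mice had Ugt2b36 at 579, 530.2, 649 and 654 CPM on chow and 605, 631, 744 and 708 CPM on HFD. For Ugt2b36, IL4KO_chow had 640.2, 614, 544 and 616 CPM and IL4KO_HFD 690.2, 582 and 549 CPM. dKO mice had Ugt2b36 at 324, 307, 294 and 256 CPM on chow and 587, 503, 562 and 349 CPM on HFD. The dKO and WT mice did not overlap on either diet. The dKO mice were lower on chow (-1.03 ± 0.13, FDR 3.93e-06) and on HFD (-0.42 ± 0.13, FDR 0.0202). The HFD call was lost without dKO_HFD replicate 4 (-0.29, FDR 0.0560), WT_HFD replicate 3 (FDR 0.0612) or WT_HFD replicate 4 (FDR 0.0528), and in a fit of the 2 groups alone (FDR 0.0883).

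Ugt2b34 and Ugt2a3 were lower in dKO on chow but not called on HFD. Ugt2b34 in CPM was 471, 495, 542 and 611 in WT_chow and 524, 519, 615 and 551 in WT_HFD. IL4KO mice had Ugt2b34 at 554, 541, 593 and 507 CPM on chow and 510.4, 442 and 531 CPM on HFD. In dKO, Ugt2b34 stood at 286, 320.4, 251 and 239.7 CPM on chow and 596, 476, 430.2 and 259 CPM on HFD. The groups lay apart on chow and overlapped on HFD. Ugt2b34 differed from WT by -0.95 ± 0.16, FDR 8.3e-05 on chow and -0.33 ± 0.16, FDR 0.143 on HFD, where replicate 4 was the lowest by a wide gap. In WT, Ugt2a3 stood at 267, 226, 259 and 309 CPM on chow and 225, 248, 269 and 263 CPM on HFD. The Ugt2a3 values of IL4KO_chow were 297, 310.1, 257 and 278 CPM and those of IL4KO_HFD 232, 136 and 251 CPM. With dKO, Ugt2a3 was 152, 136, 118 and 133 CPM on chow and 270.4, 295, 276 and 180.0 CPM on HFD. Here too only the chow groups lay apart. The differences from WT were -0.98 ± 0.16, FDR 4.9e-05 on chow and 0.02 ± 0.16, FDR 0.927 on HFD.

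Ugt2b1 changed with the diet in opposite directions in IL4KO and dKO. WT mice had Ugt2b1 at 498, 402, 514 and 574 CPM on chow and 275, 375, 339.6 and 357 CPM on HFD. For Ugt2b1, IL4KO_chow had 771, 727, 559 and 708 CPM and IL4KO_HFD 324, 190.3 and 395 CPM. dKO mice had Ugt2b1 at 213, 171, 164 and 155 CPM on chow and 504, 508, 311 and 150.4 CPM on HFD. On chow all dKO mice lay below all WT mice (-1.50 ± 0.28, FDR 0.000275). The HFD lowered it in IL4KO (-1.19 ± 0.31, FDR 0.0198) with no overlap, and raised it in dKO (1.07 ± 0.28, FDR 0.00471), where replicate 4 lay below every chow mouse. In WT the diet effect was -0.56 ± 0.27, FDR 0.162. The IL4KO call was lost without IL4KO_HFD replicate 1 (FDR 0.0502) or replicate 2 (FDR 0.166). The interaction, tested as the difference of the diet effects, was 2.26 ± 0.41, FDR 0.00161 between dKO and IL4KO and 1.63 ± 0.39, FDR 0.00731 between dKO and WT.

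Ugt2b35 was low in dKO on both diets and, unlike Ugt2b5 and Ugt2b36, was not raised by the HFD in dKO. Ugt2b35 in CPM was 174, 135, 175 and 189 in WT_chow and 162, 158, 179.9 and 212 in WT_HFD. IL4KO mice had Ugt2b35 at 148, 164, 143 and 134 CPM on chow and 119, 106 and 86.2 CPM on HFD. In dKO, Ugt2b35 stood at 82.5, 78.2, 58.5 and 56.7 CPM on chow and 82.0, 54.9, 70.6 and 65.4 CPM on HFD. Its difference from WT was -1.29 ± 0.14, FDR 1.16e-06 on chow and -1.39 ± 0.14, FDR 1.65e-06 on HFD, with no overlap, and the diet effect in dKO was -0.02 ± 0.14, FDR 0.932. It was also the only member called between IL4KO and WT on HFD (-0.78 ± 0.16, FDR 0.00703), a call lost without IL4KO_HFD replicate 3 (FDR 0.0518). The fall with HFD within IL4KO (-0.51 ± 0.16, FDR 0.0439) was lost in 6 of 7 fits that left out 1 library of these groups.

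Ugt2b37 and Ugt2b38, near copies of Ugt2b5 in part, were low and uneven. In WT, Ugt2b38 stood at 2.40, 3.51, 8.33 and 4.70 CPM on chow and 0.139, 1.08, 0.234 and 1.85 CPM on HFD. The Ugt2b38 values of IL4KO_chow were 10.8, 17.5, 9.72 and 8.50 CPM and those of IL4KO_HFD 1.94, 0.224 and 4.86 CPM. With dKO, Ugt2b38 was 4.17, 4.12, 0.875 and 3.87 CPM on chow and 28.4, 14.8, 0.882 and 2.81 CPM on HFD. The dKO_HFD mice ranged from below 1 CPM to 28.4 CPM, so the difference from WT on HFD (3.65 ± 0.95, FDR 0.0105) had overlap and was lost in a fit of the 2 groups alone (FDR 0.0847). WT mice had Ugt2b37 at 0.647, 0.815, 1.18 and 1.97 CPM on chow and 1.46, 2.16, 0.701 and 5.02 CPM on HFD. For Ugt2b37, IL4KO_chow had 1.48, 1.90, 0.286 and 1.67 CPM and IL4KO_HFD 1.37, 1.01 and 1.21 CPM. dKO mice had Ugt2b37 at 0.670, 0.896, 0.934 and 0.700 CPM on chow and 7.98, 2.76, 0.604 and 1.09 CPM on HFD. Its rise with HFD in dKO (1.91 ± 0.63, FDR 0.0207) rested on replicate 1 and was 0.92 (FDR 0.198) without it.

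The Ugt3a genes, whose human counterparts use other UDP-sugars than glucuronic acid, were both raised by the HFD in dKO. Ugt3a1 in CPM was 117, 125, 141 and 129 in WT_chow and 139, 144, 182 and 134 in WT_HFD. IL4KO mice had Ugt3a1 at 129, 113, 123 and 126 CPM on chow and 154, 107 and 159 CPM on HFD. In dKO, Ugt3a1 stood at 38.9, 33.2, 39.1 and 33.8 CPM on chow and 146, 143, 155 and 61.3 CPM on HFD. The dKO_chow mice lay below all others, -1.82 ± 0.20, FDR 1.66e-06 against WT (3.54-fold lower), and the dKO_HFD mice other than replicate 4 lay within the WT_HFD range. The diet raised it in dKO by 1.80 ± 0.20, FDR 3.47e-06, or 2.03 without replicate 4. In WT, Ugt3a2 stood at 371, 317, 394 and 375 CPM on chow and 388, 413, 458 and 433 CPM on HFD. The Ugt3a2 values of IL4KO_chow were 387, 366, 382 and 403 CPM and those of IL4KO_HFD 451, 339 and 439.9 CPM. With dKO, Ugt3a2 was 204, 192, 197 and 209 CPM on chow and 489, 470.1, 431 and 288 CPM on HFD. The dKO_chow mice again lay below all others. Ugt3a2 differed less, -0.86 ± 0.12, FDR 1.44e-05 against WT on chow and -0.01 ± 0.12, FDR 0.961 on HFD.

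Ugt8a makes galactosylceramide of myelin and was near the limit of detection. It ran from 0 to 0.725 CPM in WT_chow and from 0.467 to 1.52 CPM in dKO_chow. It passed the filter on low counts only through dKO_chow, so its test supports nothing about the members as a set. On chow the fitted difference of dKO was 2.09 ± 0.60, FDR 0.0067 from WT, with overlap, and 1.94 ± 0.62, FDR 0.0137 from IL4KO. The difference from WT was 3.85 without WT_chow replicate 3, and with limma on the deposited log2 values it was 0.58 (FDR 0.136). Of the brain list, Mbp was higher in dKO_chow than in WT_chow (1.69 ± 0.38, FDR 0.000973), and the part of nerve tissue was not tested.

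**Figure D4:**
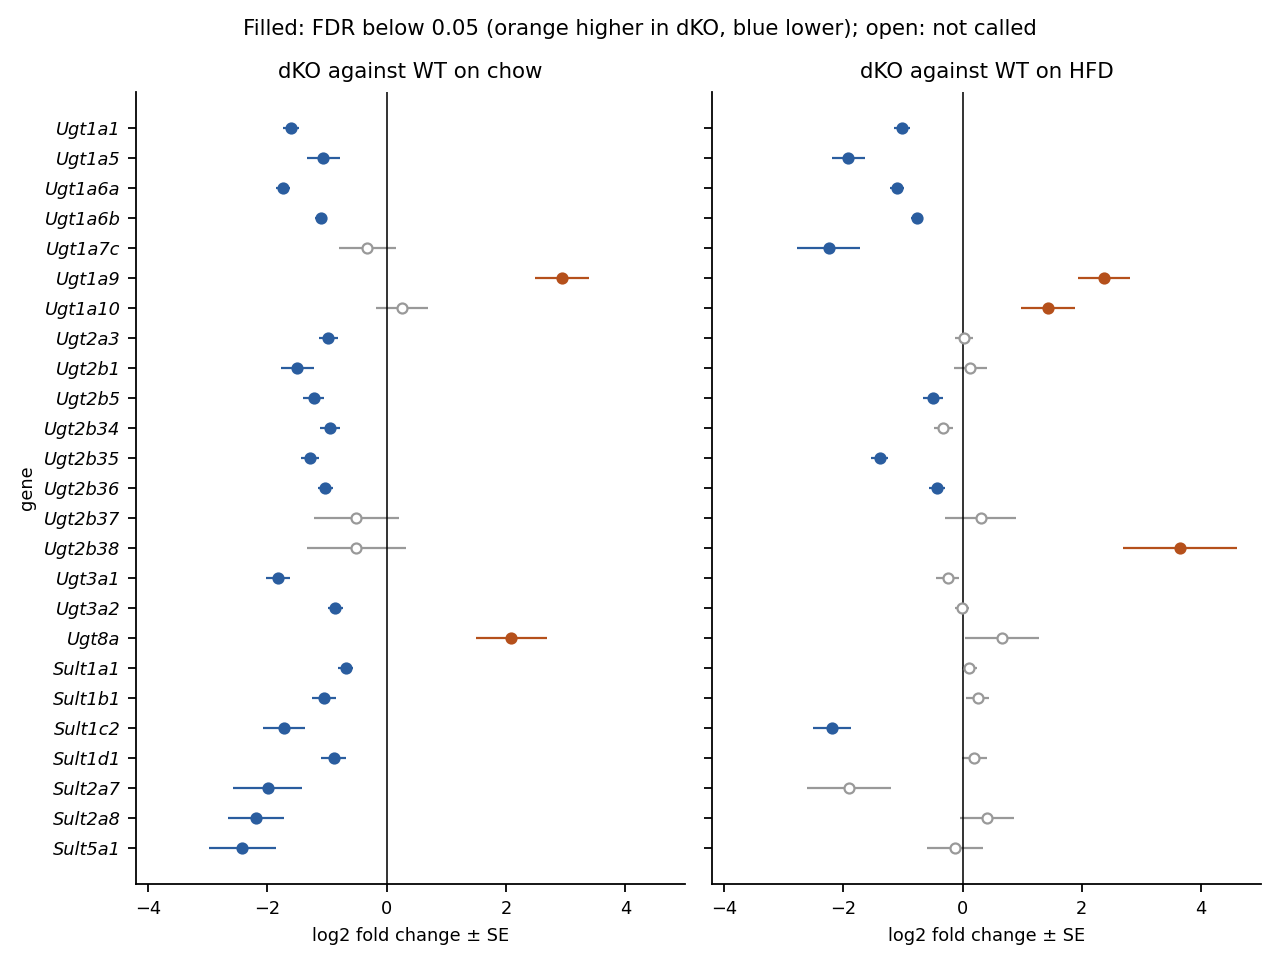
Log2 fold change ± SE of the 25 tested genes, dKO against WT, on chow (left) and on HFD (right); filled points have FDR below 0.05, orange higher and blue lower in dKO, and open grey points were not called. On chow 19 points are filled blue, and on HFD 9 are, of which 5 are Ugt1a genes.

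On HFD the difference between dKO and WT was narrower. Of 25 tested members, 9 were lower and 3 higher, where 24.5% of all tested genes were called (11.6% lower and 12.9% higher), and the median was -0.12 over the members and 0.01 over all tested genes. All 7 tested Ugt1a genes were among the 12 called, with 5 lower and 2 higher. Called with no overlap between the mice of the 2 groups were 9 of the 25 tested members and 19.5% of all tested genes. Among called genes only, these were 9 of 12 members and 2513 of all 3157. Without dKO_HFD replicate 4, 7 were lower and 3 higher, where 21.8% of all tested genes were called. The lower ones outside Ugt1a were Ugt2b5, Ugt2b35, Ugt2b36 and Sult1c2, and the third higher gene beside Ugt1a9 and Ugt1a10 was Ugt2b38.

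**Figure D5:**
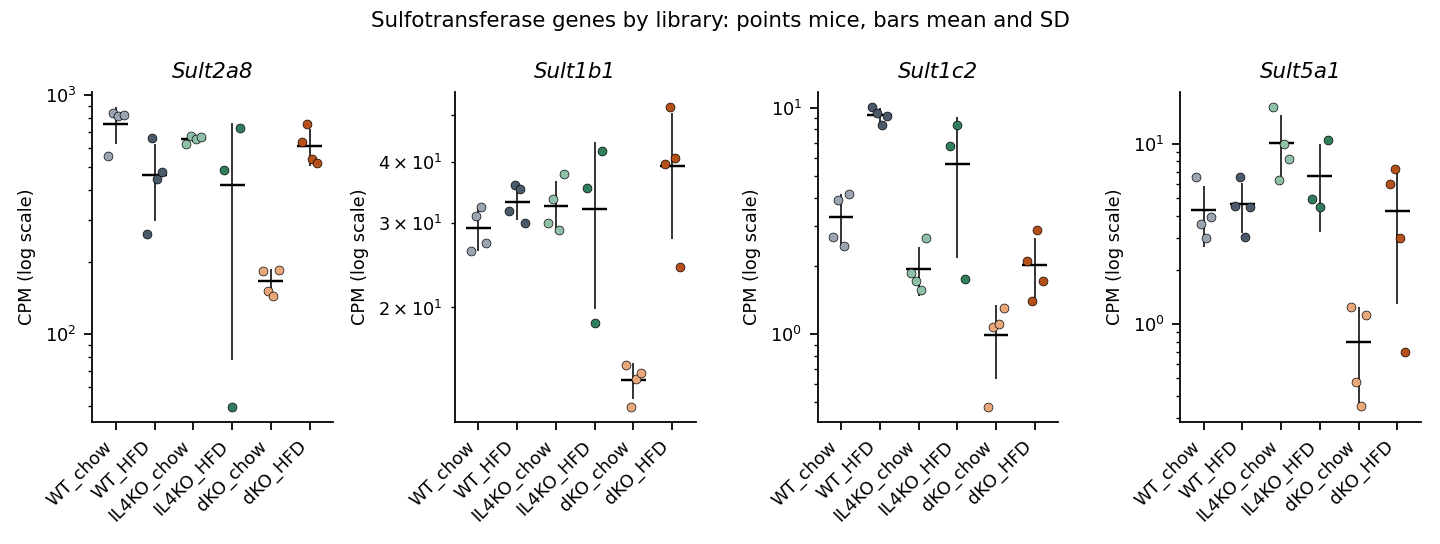
CPM of 4 sulfotransferase genes by group, each on its own log axis; points are mice, horizontal bars means and vertical bars SD. Sult2a8, Sult1b1 and Sult5a1 are low in dKO_chow and mostly higher in dKO_HFD, while Sult1c2 is highest in WT_HFD and IL4KO_HFD.

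Sult2a8, a sulfotransferase of mouse liver known to prefer bile acids, had the highest mean per length of the Sult genes in WT_chow, overlapping Sult1a1 within the spread. WT mice had Sult2a8 at 556, 837, 811 and 822 CPM on chow and 262, 662, 443 and 474 CPM on HFD. For Sult2a8, IL4KO_chow had 625, 671, 652 and 663 CPM and IL4KO_HFD 486, 49.5 and 724 CPM. dKO mice had Sult2a8 at 184, 151, 143 and 184 CPM on chow and 634, 752, 538 and 518 CPM on HFD. The dKO_chow mice lay below every mouse of the other groups except IL4KO_HFD replicate 2, the lowest of all. The difference from WT on chow was -2.19 ± 0.47, FDR 0.00112 (4.57-fold lower), and from IL4KO -1.98 ± 0.47, FDR 0.0023. The HFD raised it in dKO (1.88 ± 0.47, FDR 0.00395, 3.69-fold), with all 4 HFD mice above all 4 chow mice, replicate 4 included. In WT the diet effect was -0.72 ± 0.45, FDR 0.295 and in IL4KO -0.64 ± 0.50, FDR 0.452, neither called, and without IL4KO_HFD replicate 2 the IL4KO value was -0.10 (FDR 0.894). The diet effects of dKO and WT differed by 2.60 ± 0.65, FDR 0.00995.

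Sult2a7, its neighbour on chromosome 7, was scarce and scattered. Sult2a7 in CPM was 5.36, 13, 2.17 and 7.99 in WT_chow and 0.765, 2.85, 4.56 and 2.34 in WT_HFD. IL4KO mice had Sult2a7 at 1.02, 0.722, 4.29 and 1.25 CPM on chow and 1.71, 0.335 and 2.43 CPM on HFD. In dKO, Sult2a7 stood at 1.01, 3.32, 1.93 and 0.700 CPM on chow and 0.527, 0.659, 0.975 and 0.391 CPM on HFD. It was lower in dKO than in WT on chow (-2.0 ± 0.58, FDR 0.00879), with overlap, and was not called on HFD (-1.91 ± 0.70, FDR 0.054).

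Of the Sult1 genes, Sult1a1 handles phenols, Sult1b1 phenols and thyroid hormones, and Sult1d1 catecholamines. In WT, Sult1b1 stood at 26.2, 31.0, 32.3 and 27.2 CPM on chow and 31.6, 35.8, 35.2 and 30.0 CPM on HFD. The Sult1b1 values of IL4KO_chow were 29.9, 33.5, 28.9 and 37.7 CPM and those of IL4KO_HFD 35.3, 18.6 and 42.1 CPM. With dKO, Sult1b1 was 15.2, 12.5, 14.2 and 14.7 CPM on chow and 39.6, 52.1, 40.8 and 24.3 CPM on HFD. The dKO_chow mice were the lowest (-1.05 ± 0.20, FDR 0.000368 against WT), and the HFD raised the gene in dKO by 1.48 ± 0.20, FDR 2.01e-05, above the WT_HFD mice in 3 of 4 animals. WT mice had Sult1d1 at 161, 141, 144 and 145 CPM on chow and 163, 179.7, 230.1 and 169 CPM on HFD. For Sult1d1, IL4KO_chow had 168, 211, 136 and 179.7 CPM and IL4KO_HFD 278, 164 and 236 CPM. dKO mice had Sult1d1 at 90.7, 66.7, 95.8 and 66.4 CPM on chow and 185, 261, 276 and 128 CPM on HFD. Again the dKO_chow mice lay below all others. Sult1d1 differed by -0.89 ± 0.21, FDR 0.00179 against WT on chow and 1.41 ± 0.21, FDR 4.94e-05 for the diet in dKO. Sult1a1 in CPM was 449, 387, 359 and 346 in WT_chow and 385, 401, 377 and 327 in WT_HFD. IL4KO mice had Sult1a1 at 353, 341, 306 and 374 CPM on chow and 466, 302 and 425 CPM on HFD. In dKO, Sult1a1 stood at 256, 242, 223 and 237 CPM on chow and 350.4, 466, 454 and 337 CPM on HFD. Here the differences were smaller, -0.69 ± 0.13, FDR 0.000185 against WT on chow and 0.75 ± 0.13, FDR 0.000123 for the diet in dKO. None of these 3 genes was called between dKO and WT on HFD.

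Sult1c2, a phenol sulfotransferase, was the only member that the HFD raised in all 3 genotypes. In WT, Sult1c2 stood at 2.68, 3.91, 2.45 and 4.13 CPM on chow and 10.1, 9.47, 8.41 and 9.16 CPM on HFD. The Sult1c2 values of IL4KO_chow were 1.85, 1.72, 1.57 and 2.65 CPM and those of IL4KO_HFD 6.74, 8.38 and 1.75 CPM. With dKO, Sult1c2 was 0.479, 1.08, 1.11 and 1.31 CPM on chow and 2.11, 1.40, 2.88 and 1.72 CPM on HFD. The diet effect was 1.49 ± 0.31, FDR 0.00205 in WT, 1.56 ± 0.38, FDR 0.0123 in IL4KO and 1.02 ± 0.35, FDR 0.0238 in dKO. The IL4KO call was lost without IL4KO_HFD replicate 2 (FDR 0.149) and in a fit of the 2 groups alone (FDR 0.0836), and IL4KO_HFD replicate 3 stayed at the chow level. The dKO call was lost without dKO_chow replicate 1 (FDR 0.0791) or dKO_HFD replicate 3 (FDR 0.115) and with limma on the deposited log2 values (FDR 0.0763). The libraries labelled dKO had less of it than WT on chow (-1.72 ± 0.35, FDR 0.00045) and on HFD (-2.19 ± 0.31, FDR 5.24e-05), with no overlap. Its promoter is shown as that of the only member called higher with HFD in all 3 genotypes (chr17:53845909-53846208, minus strand, GRCm38.p6). Matches to TGANNNNGC and TTGCNNAA are in capitals.
Sult1c2: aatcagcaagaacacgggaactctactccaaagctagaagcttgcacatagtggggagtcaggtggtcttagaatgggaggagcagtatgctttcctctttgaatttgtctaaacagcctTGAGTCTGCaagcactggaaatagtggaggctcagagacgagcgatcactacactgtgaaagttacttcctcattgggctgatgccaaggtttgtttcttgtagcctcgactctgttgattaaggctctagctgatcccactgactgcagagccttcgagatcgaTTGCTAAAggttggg

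Sult5a1, a little-studied member, had the most negative log2 fold change of the 7 tested Sult genes between dKO and WT on chow. WT mice had Sult5a1 at 6.57, 3.59, 2.99 and 3.95 CPM on chow and 4.52, 6.54, 3.04 and 4.47 CPM on HFD. For Sult5a1, IL4KO_chow had 16, 6.32, 10.0 and 8.22 CPM and IL4KO_HFD 4.91, 4.47 and 10.5 CPM. dKO mice had Sult5a1 at 1.24, 0.478, 0.350 and 1.12 CPM on chow and 5.95, 7.21, 3.02 and 0.703 CPM on HFD. It was lower in dKO_chow than in WT_chow (-2.42 ± 0.56, FDR 0.00178, 5.35-fold) and IL4KO_chow (-3.68 ± 0.54, FDR 3.27e-05, 12.8-fold), with no overlap. The HFD raised it in dKO (2.44 ± 0.54, FDR 0.00167), although replicate 4, at 0.703 CPM, stayed within the chow range. Without replicate 4 the diet effect was 2.77.

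The effect of the HFD on these genes depended on the genotype. In WT, 1 of 25 tested members was higher and 0 lower, where 19.5% of all tested genes were called (9.63% higher and 9.84% lower), and 3 members had an unadjusted p below 0.05. In IL4KO, 1 was higher and 2 lower, where 9.08% of all genes were called (5.14% higher and 3.94% lower). In dKO, 17 were higher and 1 (Ugt1a7c) lower, where 40.0% of all genes were called, 19.4% higher and 20.5% lower, and the median was 0.76 over the members against -0.02 over all genes. Without dKO_HFD replicate 4, 18 were higher and 1 lower, where the share of all tested genes called was 46.5%. Cholangiocyte (8 of 8), neutrophil (7 of 7 tested) and macrophage (8 of 8) markers and 13 of 16 acute phase genes were lower, and 8 of 10 hepatocyte markers higher, with HFD in dKO, and their part was not tested.

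The difference of the diet effects was tested directly. Between dKO and WT, 15 members had a more positive diet effect in dKO and 0 a less positive one, where 25.2% of all genes were called (12.6% each way). Between dKO and IL4KO the counts were 14 and 0, where 24.4% of all genes were called (12.7% and 11.7%). Between IL4KO and WT, 0 of 25 were called by edgeR and 0 by DESeq2, where 0.0465% of all genes were (0.0155% with a more positive effect in IL4KO and 0.0310% with a less positive one), and 1 member had an unadjusted p below 0.05. The first 2 sets of tests share the dKO mice. The Ugt1a9 diet effect was 0.32 ± 0.41, FDR 0.574 in dKO and 0.89 ± 0.43, FDR 0.158 in WT, so this gene was not called for the diet in either.

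Loss of IL-4 by label was followed by few calls among these genes. On chow, 0 of 25 tested members were called between IL4KO and WT by edgeR, where 9.61% of all tested genes were (5.93% higher and 3.68% lower), with 3 at an unadjusted p below 0.05 and 1 called by DESeq2. A fit of the 2 groups alone called 4 of 23 members and 13.9% of all 11692 genes it tested. On HFD 1 was called (Ugt2b35, lower), where 3.02% of all genes were (1.73% higher and 1.29% lower). The interval of the difference shows what was not resolved: for Ugt1a1 on chow the log2 fold change was -0.07 ± 0.13, with a 95% interval of -0.34 to 0.20, and for Sult2a8 -0.21 ± 0.45, with -1.16 to 0.74.

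Set against IL4KO, with which the dKO mice share the IL-4 deletion by label, the dKO mice again had lower levels. On chow 18 members were lower and 3 higher, where 45.2% of all genes were called (22.2% lower and 23.0% higher), and on HFD 6 were lower and 1 higher, where 2.51% were (1.56% and 0.946%). The 3 higher on chow were Ugt1a9, Ugt1a10 and Ugt8a, and Ugt8a passed the filter on low counts only through dKO_chow, where it is high. The 7 called on HFD were Ugt1a1, Ugt1a5, Ugt1a6a, Ugt1a6b, Ugt2b35 and Sult1c2 (lower) and Ugt1a9 (higher). A fit of the 2 HFD groups alone called 0 of these, with the same directions, and 0.0331% of all 12085 genes it tested. Without IL4KO_HFD replicate 2, the calls of Sult1c2 (FDR 0.253) and Ugt2b35 (FDR 0.179) were lost, where 0.298% of all genes were called. Both calls were also lost without dKO_HFD replicate 4 (FDR 0.0652 and 0.0872), where 0.921% of all genes were called. This comparison uses the same dKO libraries as that with WT, so it is not a second test of them.

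Of 3 genes for the sugar donor, 1 was lower in dKO than in WT on chow and 2 on HFD. For this and the PAPS list, the shares over all tested genes were 24.4% higher and 21.9% lower on chow. They were 12.9% and 11.6% on HFD. Ugp2, which makes UDP-glucose, was 415 ± 52.3 CPM in WT_chow and 183 ± 16.6 CPM in dKO_chow (-1.18 ± 0.15, FDR 5.19e-06), and 669.7 ± 81.5 CPM and 366 ± 75.0 CPM on HFD (-0.87 ± 0.15, FDR 0.000377). The HFD raised it in WT (0.69 ± 0.15, FDR 0.00321) and in dKO (1.0 ± 0.15, FDR 4.39e-05). Ugdh, which oxidises UDP-glucose to UDP-glucuronic acid, was lower in dKO on HFD (-0.93 ± 0.15, FDR 0.00025) and not called on chow (-0.07 ± 0.15, FDR 0.751). Slc35d1, which carries the donor into the endoplasmic reticulum, was not called between dKO and WT on either diet. Of 7 genes for PAPS, 1 was higher and 2 lower in dKO on chow and 1 lower on HFD, where Papss2, a synthase of the donor, was lower both times (-0.73 ± 0.14, FDR 0.00034 and -0.55 ± 0.14, FDR 0.00872).

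Export and removal of conjugates moved less uniformly. Of 5 exporters, 3 (Abcc3, Abcc6 and Abcg2) were lower in dKO than in WT on chow, and on HFD 1 (Abcc4) was lower and 1 (Abcc2) was higher. Over all tested genes, 21.9% were lower on chow, and 11.6% lower and 12.9% higher on HFD. Abcc2, the pump for bilirubin glucuronide into bile, was 191 ± 20.6 CPM in WT_chow and 396 ± 24.5 CPM in IL4KO_chow (1.05 ± 0.13, FDR 1.35e-05), and 167 ± 20.1 CPM in dKO_chow. Of 4 measured genes that remove conjugates (Gusb and 3 arylsulfatases), 0 were called between dKO and WT on chow by edgeR (0 at an unadjusted p below 0.05), and 2 (Arsb and Arsg) were lower on HFD.

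Receptors and other regulators known to control these genes were called in both directions. Of 20 tested, 2 were higher and 5 lower in dKO than in WT on chow, where 24.4% of all genes were higher and 21.9% lower, and 5 were higher and 5 lower on HFD, where the shares were 12.9% and 11.6%. On chow the lower ones included Nr1i2 (the receptor PXR; -0.83 ± 0.15, FDR 0.000228), Nr1i3 (the receptor CAR; -0.53 ± 0.17, FDR 0.0152) and Ppara (-0.69 ± 0.16, FDR 0.00134). On HFD Ahr (-0.63 ± 0.18, FDR 0.0139) and Nfe2l2, which encodes NRF2 (-0.53 ± 0.11, FDR 0.00109), were lower. Among well-known targets, 5 of 6 for NRF2 were lower in dKO on HFD and 1 of 6 on chow. For CAR and PXR, 2 of 4 were lower on chow, and 3 lower and 1 higher on HFD, with Cyp2b10 at 74.3 ± 35.0 CPM in WT_chow and 9.61 ± 4.77 CPM in dKO_chow. For PPARA 3 of 4 were lower on chow and 1 on HFD, and for AHR 1 of 3 on either diet.

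Genes that make or use the substrates moved in both directions between the diets. Of 9 steroid and bile acid genes, 7 were lower in dKO than in WT on chow, and 3 higher and 0 lower on HFD. For these and the sex-biased lists, the share of all tested genes lower on chow was 21.9%. On HFD 12.9% were higher and 11.6% lower. Cyp7b1, which hydroxylates oxysterols, was 87.7 ± 32.5 CPM in dKO_chow and 306 ± 148 CPM in dKO_HFD, against 206 ± 42.7 CPM and 94.8 ± 31.1 CPM in WT. Of 8 male-biased liver genes, 3 were lower in dKO on chow and 3 higher on HFD. Of 4 tested female-biased genes, 2 were lower on chow and 3 lower on HFD.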

How the data were processed

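The authors deposited 1 table of estimated counts per gene symbol and 1 table of log2 values for the same 23 liver libraries. Per the submitters' processing notes, the tools were bcl2fastq 2.16, TopHat2 2.0.8 and Partek and the build mm10, while no label or header gives the annotation, counting or strand settings. The deposited log2 values are, by their naming and range, log2 read rates shifted to a common upper quartile, with low genes left out by the authors. The estimated counts, rounded to integers, were tested with edgeR 4.0.16 (R 4.3.3): TMM factors, its default filter on low counts (12891 of 24440 genes kept), a robust quasi-likelihood fit of 6 group means, 17 residual degrees of freedom, and Benjamini-Hochberg adjustment over all tested genes. A standard error is the log2 fold change divided by the square root of F. There were 9 pairs of groups and 3 interactions. DESeq2 1.42.0, limma 3.58.1 on the deposited log2 values, other scalings and filters, fits of 2 groups and leaving out each library were alternatives. The scripts were tested on simulated data. CPM were computed from the counts in tested genes with TMM factors, and library totals ran from 7114454 to 30205070 counts.

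The members and lists were chosen with earlier results of these data known. Values in every library are given for members called in at least 1 pair with a group mean of at least 2 CPM. The lists covered hepatocyte, cholangiocyte, neutrophil, macrophage, lymphocyte, stellate, endothelial, intestine, pancreas, kidney and brain markers, acute phase and sex-biased genes, donors, export, removal, regulators and their targets, and steroid and bile acid genes. 1 gene of the brain list is not reported here.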

Additional observations from a re-analysis of the deposited data

Results flagged for a closer look

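In 125 groups of 4 mice, 5 held a mouse whose gap to the nearest other exceeded Dixon's 95% critical value, and chance alone flags about 1 in 20 groups. Sult2a7 was 4.29 CPM in IL4KO_chow replicate 3 against 0.722 to 1.25 CPM in the other 3 mice. Sult2a8 was 556 CPM in WT_chow replicate 1 against 811 to 837 CPM. Ugt1a10 was 1.20 CPM in WT_chow replicate 1 against 1.60 to 1.63 CPM. Ugt2b38 was 0.875 CPM in dKO_chow replicate 3 against 3.87 to 4.17 CPM. Ugt3a1 was 61.3 CPM in dKO_HFD replicate 4 against 143 to 155 CPM, in the liver whose acute phase sum was 60750 CPM.

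The diet effect differed between genotypes in an interaction test (edgeR, adjusted p below 0.05) for 15 members against WT and 14 against IL4KO, all with the more positive diet effect in dKO. The dKO effect minus the WT effect, on the log2 scale, was as follows for those members: Sult1a1 0.80, Sult1b1 1.30, Sult1d1 1.09, Sult2a8 2.60, Sult5a1 2.30, Ugt1a1 0.59, Ugt1a6a 0.65, Ugt2a3 1.0, Ugt2b1 1.63, Ugt2b34 0.62, Ugt2b36 0.61, Ugt2b38 4.15, Ugt2b5 0.74, Ugt3a1 1.58 and Ugt3a2 0.85. The dKO effect minus the IL4KO effect, on the same scale and with the same dKO mice, was as follows: Sult1a1 0.54, Sult1b1 1.51, Sult1d1 1.04, Sult2a8 2.52, Sult5a1 3.07, Ugt1a6a 0.91, Ugt2a3 1.39, Ugt2b1 2.26, Ugt2b34 0.83, Ugt2b36 0.75, Ugt2b38 4.18, Ugt2b5 1.03, Ugt3a1 1.61 and Ugt3a2 0.97.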

How the results depend on the processing

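Counts of members called are out of 25 tested in the main analysis, 22 to 24 in fits of 2 groups alone, 23 with the strict filter, 24 to 26 with 1 library left out, and 26 with dKO_HFD replicate 4 and IL4KO_HFD replicate 2 both left out. The diet effect in WT, 1 by the main analysis, was 2 with DESeq2, 4 in a fit of the 2 groups alone, 1 to 2 with 1 library left out, and 5 without both of those libraries, an alternative chosen after seeing the data. The diet effect in IL4KO, 3, was 0 to 4 with 1 library left out (0 without IL4KO_HFD replicate 2) and 1 without both libraries. IL4KO against WT on chow, 0, was 1 with RLE factors, with upper quartile factors, with the strict filter and with DESeq2, 4 in a fit of the 2 groups alone, 2 without both libraries, and 0 to 1 with 1 library left out. IL4KO against WT on HFD, 1, was 0 to 1 with 1 library left out (0 without IL4KO_HFD replicate 3). dKO against IL4KO on HFD, 7, was 0 in a fit of the 2 groups alone and 4 to 7 with 1 library left out. The cause of these shifts was not tested.

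The other counts stayed within 1.5 times the main one. With 1 library left out they were 16 to 19 for the diet effect in dKO, 20 to 21 and 9 to 13 for dKO against WT on chow and HFD, 18 to 20 for dKO against IL4KO on chow, and 11 to 17 and 10 to 15 for the interactions with WT and IL4KO. Of 1315 alternative values for 78 single-gene results, 1258 kept their direction and side of the threshold, 57 kept the direction but lost the call, and 0 reversed. Interactions need 4 groups and have no fit of 2. No paired analysis was possible because the labels give no replicate numbers that tie mice across groups. Genes near 1 CPM, such as Ugt1a7c, Ugt8a and Ugt2b37, rest on few counts in the shallow libraries, and the division of reads shared by Ugt1a genes could not be varied here.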
